A study of Mus musculus with 9 samples.

Results

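Mast cell and basophil genes are described here as 8 genes chosen by name for their role in these cells: Fcer1a, Ms4a2, Cpa3, Mcpt8, Hdc, Hnmt, Cma1 and Tpsb2. All 8 had a probe set with a single gene symbol, 1 each, among the 17731 genes measured. The arrays held total RNA of sorted mouse bone marrow cells of the C57BL6 strain, 3 per group. In every group the marrow cells expressed the leukemia oncogene HoxA9, which had made them immortal, and had been infected with a retrovirus and transplanted into irradiated syngeneic mice. GFP-positive cells were sorted from the marrow 4 weeks later. IDH1mut cells carried a pSF91 vector with mutant IDH1 and green fluorescent protein, IDH1wt cells the same kind of vector with wild-type IDH1, and CTL cells the EGFP vector without IDH1. The labels do not say which IDH1 mutation was used, how old the mice were, or whether the arrays of a group came from separate mice, so p-values measure the spread between these arrays, which may be technical.

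Mast cells and basophils are granulated cells that bind IgE through a high-affinity receptor. Its alpha chain, encoded by Fcer1a, binds IgE; its beta chain, encoded by Ms4a2, amplifies the signal; its gamma chain, encoded by Fcer1g, carries the signalling motif and is shared with Fc receptors of other myeloid cells. Their granules hold histamine and proteases packed on serglycin. Histamine is made from histidine by the enzyme of Hdc and inactivated by the methyltransferase of Hnmt. Cpa3 encodes carboxypeptidase A3. Mcpt8 encodes a protease that marks basophils in the mouse, whereas the chymase of Cma1 and the tryptase of Tpsb2 are proteases of tissue mast cells. Precursors of these cells arise in the marrow and depend on the transcription factors GATA1 and GATA2.

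In the IDH1mut group Hnmt was 3.98-fold lower and Ms4a2 2.58-fold lower than in the CTL group, and Hdc was 1.35-fold higher. In the IDH1wt group none of these 3 passed the test against CTL, although Hdc was 1.29-fold higher there with all arrays above CTL. Mcpt8 differed between the IDH1 groups themselves, 2.81-fold lower in IDH1mut than in IDH1wt. The tissue mast cell proteases Cma1 and Tpsb2 read low on the scale on every array, and Fcer1a, Ms4a2 and Mcpt8 varied widely between arrays of the IDH1wt group. All values are log2 expression values, a fold change is a difference of group means of these values, and "rose", "fell" and "changed" mark an adjusted p under 0.05 from limma over all 17731 genes.

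Of the 8 genes, 2 fell and 1 rose in IDH1mut against CTL, where 10.6% of all genes fell and 10.1% rose (20.7% in either direction). In IDH1wt against CTL, 1 rose and 0 fell, where 1.62% of all genes rose and 0.711% fell (2.33% in either direction). In IDH1mut against IDH1wt, 3 fell and 0 rose, where 6.78% fell and 6.54% rose (13.3% in either direction). With so few members these counts describe single genes and not the group. The median log2 fold change of the 8 genes was -0.23 in IDH1mut against CTL, 0.21 in IDH1wt against CTL and -0.81 in IDH1mut against IDH1wt. Over all genes the medians were -0.04, -0.04 and 0.00 in the same order. The comparisons share arrays pairwise, so their values are not independent of each other.

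Medians of the 9 arrays were 4.65 to 4.72, and their upper quartiles were 6.91 to 7.0. Correlations over genes ran from 0.992 to 0.997 between arrays of the same group and from 0.982 to 0.992 between groups, and 0 arrays were identical. Mpo, myeloperoxidase, lay between 12.64 and 13.38, and Itgam, an integrin of myeloid cells, between 9.68 and 10.36 on the 9 arrays. Both differed by group. In IDH1mut against CTL Mpo fell by 0.62 ± 0.08 (limma adjusted p = 0.000486) and Itgam rose by 0.48 ± 0.09 (limma adjusted p = 0.0042). The erythroid gene Car2, named here after its values were seen, also read high. It averaged 11.54 in IDH1mut, 10.65 in IDH1wt and 10.36 in CTL. The make-up of the sorted cells was not tested.

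Promoters of Ms4a2, Fcer1a and Cpa3 are shown because GATA factors are known regulators of these cells and these 3 members, whose levels varied over the arrays, hold GATA letters. The 250 bases before the RefSeq start are given for each (build GRCm38.p6, 5′ to 3′ on the gene's strand), and capitals mark GATA letters, that is AGATAA or the like with a first T, a last G or both, on either strand.
Ms4a2, chr19:11623720-11623969, minus strand: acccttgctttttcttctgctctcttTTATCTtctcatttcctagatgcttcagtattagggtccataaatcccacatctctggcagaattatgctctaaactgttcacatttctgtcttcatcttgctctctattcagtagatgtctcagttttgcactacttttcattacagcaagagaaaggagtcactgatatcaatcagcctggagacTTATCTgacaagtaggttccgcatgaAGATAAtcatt
Cpa3, chr3:20242182-20242431, minus strand: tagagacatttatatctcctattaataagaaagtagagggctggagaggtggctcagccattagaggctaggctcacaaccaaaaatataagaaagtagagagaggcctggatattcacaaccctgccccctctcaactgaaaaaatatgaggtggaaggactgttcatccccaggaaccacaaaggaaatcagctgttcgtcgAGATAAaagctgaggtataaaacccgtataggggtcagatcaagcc
Fcer1a, chr1:173227230-173227479, minus strand: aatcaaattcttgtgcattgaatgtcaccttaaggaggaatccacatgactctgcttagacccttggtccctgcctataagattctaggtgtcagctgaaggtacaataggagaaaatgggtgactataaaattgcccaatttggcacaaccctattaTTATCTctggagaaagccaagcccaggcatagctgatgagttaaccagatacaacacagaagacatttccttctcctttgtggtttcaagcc
Ms4a2 held 3 such matches, beginning 224, 37 and 11 bases before the start. In all 3 the RefSeq gene span reaches into the printed stretch, in Ms4a2 past its last 2 matches. Cpa3 held 1 match beginning 46 bases before the start and Fcer1a 1 beginning 92 bases before it. Of the 7 members matched to a promoter in the RefSeq table, 5 held at least 1 GATA match. The others were Hdc and Cma1 with 1 each, while the windows of Hnmt and Mcpt8 held 0. The windows of Hdc, Hnmt and Mcpt8 lay wholly inside the RefSeq span of their genes, so they do not show bases before that span. The window of Cma1 lay wholly before its gene. Of all 32817 promoter windows of this length, 26.6% held at least 1. Both Cpa3 and Fcer1a also held 2 E-box matches (CANNTG), as did Hnmt. Mcpt8 held 3 E-box matches, Hdc and Cma1 1 each, and Ms4a2 0, against 66.2% of all windows with at least 1. The STAT letters TTCNNNGAA were found in 0 of the 7 windows and in 7.0% of all windows. The matches describe letters and were not tested as binding sites.

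Of the IgE receptor chains, the beta chain gene Ms4a2 fell in IDH1mut against both other groups. Ms4a2 (probe set 1443264_at; gene at chr19:11615517-11623790, GRCm38.p6) read 7.38, 8.15 and 8.42 on the IDH1mut arrays and 8.63, 9.93 and 9.29 on the IDH1wt arrays. The CTL arrays read 9.30, 9.42 and 9.33. All IDH1mut arrays lay below all arrays of both other groups, while the IDH1wt arrays lay on both sides of the CTL arrays. The log2 fold change was -1.37 ± 0.30 (SE, n = 3 against 3; limma adjusted p = 0.00801) in IDH1mut against CTL. It was -1.30 ± 0.30 in IDH1mut against IDH1wt (limma adjusted p = 0.0159), a call lost without IDH1wt replicate 3 (limma adjusted p = 0.0507). Between IDH1wt and CTL it was -0.07 ± 0.30 (limma adjusted p = 0.938), with a 95% interval from -0.73 to 0.60. In bulk RNA, fewer cells of a type and less of the transcript per cell cannot be told apart, here or in the results that follow.

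Fcer1a (1421775_at; chr1:173221269-173227232), the IgE-binding chain, read 7.79, 8.78 and 8.84 on the IDH1mut arrays and 8.65, 10.47 and 9.62 on the IDH1wt arrays. On the CTL arrays it read 8.60, 9.04 and 8.59. IDH1mut replicate 1 was the lowest array and IDH1wt replicates 2 and 3 the highest, and each pair of groups overlapped. No comparison passed: the log2 fold change was -0.28 ± 0.39 (SE; limma adjusted p = 0.688) in IDH1mut against CTL, with a 95% interval from -1.14 to 0.58. It was 0.83 ± 0.39 (limma adjusted p = 0.311) in IDH1wt against CTL and -1.11 ± 0.39 (limma adjusted p = 0.0895) in IDH1mut against IDH1wt. Without IDH1wt replicate 1 the last of these became -1.58 ± 0.32 and passed (limma adjusted p = 0.0145). The group means were 8.47 ± 0.59 (SD, n = 3) in IDH1mut and 9.58 ± 0.91 in IDH1wt, against 8.75 ± 0.25 in CTL.

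The gamma chain gene Fcer1g averaged 12.42 ± 0.07 in IDH1mut, 12.29 ± 0.06 in IDH1wt and 12.24 ± 0.05 in CTL (SD, n = 3 each). It did not pass in any comparison, and its log2 fold change was 0.18 ± 0.09 in IDH1mut against CTL (limma adjusted p = 0.181). The within-array difference of Ms4a2 minus Fcer1a, looked at after the values had been seen, was -0.49 ± 0.12 in IDH1mut and -0.29 ± 0.27 in IDH1wt, against 0.60 ± 0.20 in CTL. All arrays of either IDH1 group lay below all CTL arrays in this difference. A two-sided exact permutation test over arrays gave p = 0.1 for IDH1mut against CTL and for IDH1wt against CTL, the smallest that 3 against 3 can give, and p = 0.4 between the IDH1 groups. Without overlap with CTL the test could give no value but 0.1, so it adds nothing to that separation.

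**Figure D1:**
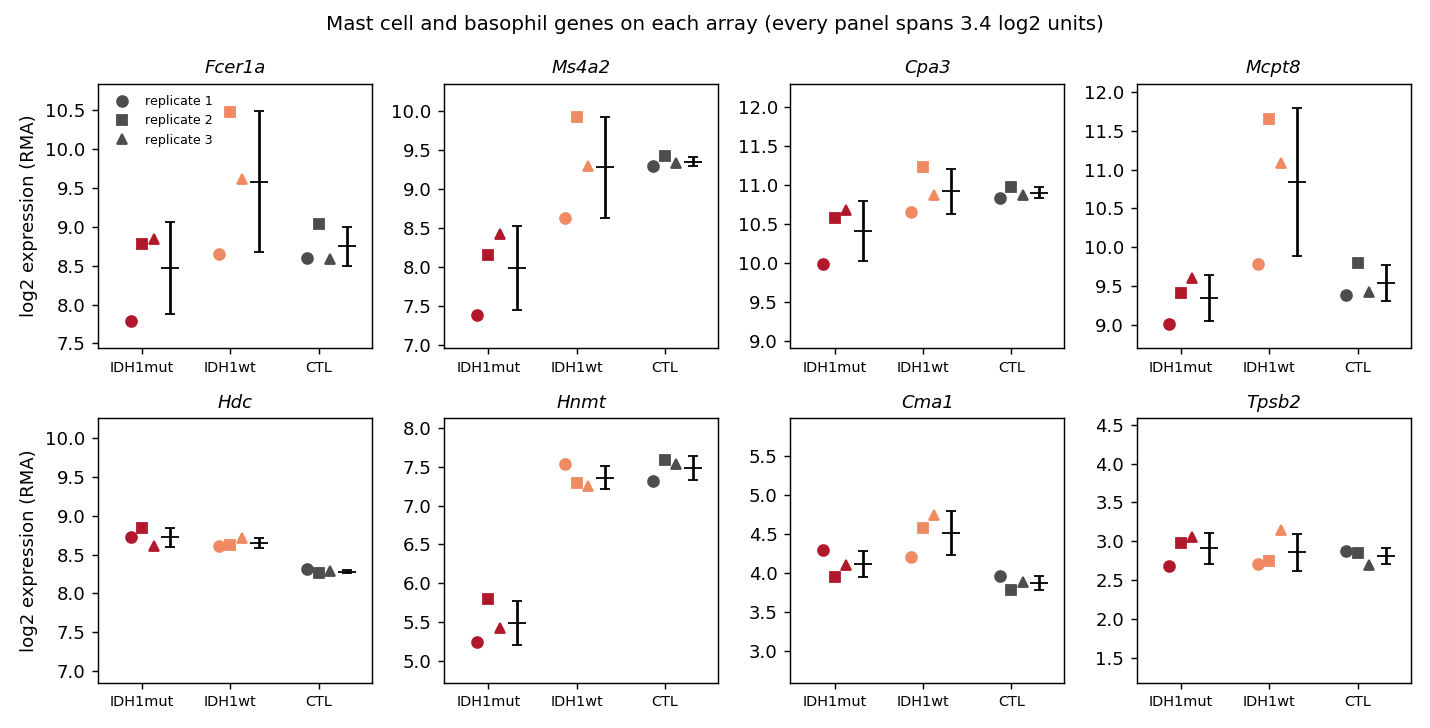
Log2 expression (RMA) of the 8 genes on each array by group, with symbols for the replicate number and bars for the mean ± SD (n = 3). The IDH1mut arrays lie apart from both other groups for Hnmt and Ms4a2, the CTL arrays lie below both IDH1 groups for Hdc, and the IDH1wt arrays spread widely for Fcer1a, Ms4a2 and Mcpt8.

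Of the granule protease genes, Cpa3 and Mcpt8 read well up the scale, and Cma1 and Tpsb2 near its low end. Cpa3 (1448730_at; chr3:20215616-20242209) read 9.98, 10.58 and 10.68 on the IDH1mut arrays and 10.65, 11.23 and 10.87 on the IDH1wt arrays. The CTL arrays read 10.84, 10.98 and 10.87. The IDH1mut arrays lay below all CTL arrays but overlapped the IDH1wt arrays, and the log2 fold change did not pass in IDH1mut against CTL (-0.48 ± 0.18, SE; limma adjusted p = 0.0912). It did not pass in IDH1mut against IDH1wt (-0.50 ± 0.18; limma adjusted p = 0.101) or in IDH1wt against CTL (0.02 ± 0.18; limma adjusted p = 0.965, 95% interval from -0.38 to 0.43).

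Mcpt8 (1449965_at; chr14:56082163-56085499), the basophil protease, read 9.02, 9.41 and 9.61 on the IDH1mut arrays and 9.79, 11.65 and 11.08 on the IDH1wt arrays. On the CTL arrays it read 9.39, 9.80 and 9.42. IDH1wt replicates 2 and 3 stood above all other arrays, IDH1wt replicate 1 lay within the range of the CTL arrays, and the IDH1mut arrays overlapped the CTL arrays. Mcpt8 fell in IDH1mut against IDH1wt by 1.49 ± 0.36 on the log2 scale (SE; limma adjusted p = 0.0197). That call was lost without IDH1wt replicate 2 (log2 fold change -1.08; limma adjusted p = 0.0505), IDH1wt replicate 3 (limma adjusted p = 0.0742), IDH1mut replicate 1 (limma adjusted p = 0.0638) or IDH1mut replicate 2 (limma adjusted p = 0.0501). The log2 fold change between IDH1wt and CTL was 1.30 ± 0.36 (2.46-fold; limma adjusted p = 0.0913) and passed without IDH1wt replicate 1 (1.83 ± 0.21; limma adjusted p = 0.00208). In IDH1mut against CTL it was -0.19 ± 0.36 (limma adjusted p = 0.776), with a 95% interval from -0.98 to 0.60.

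Cma1 (1449456_a_at; chr14:55941451-55944675), the mast cell chymase, read 4.29, 3.94 and 4.10 on the IDH1mut arrays and 4.20, 4.58 and 4.74 on the IDH1wt arrays. On the CTL arrays it read 3.96, 3.78 and 3.88, so the IDH1wt arrays lay above all CTL arrays. Cma1 rose in IDH1wt against CTL (log2 fold change 0.64 ± 0.14, SE; limma adjusted p = 0.0418). The call was lost without any 1 of 5 single arrays: CTL replicate 1 (limma adjusted p = 0.106), 2 (limma adjusted p = 0.117) or 3 (limma adjusted p = 0.127), or IDH1wt replicate 2 (limma adjusted p = 0.129) or 3 (limma adjusted p = 0.153). It did not pass in IDH1mut against CTL (0.24 ± 0.14; limma adjusted p = 0.281) or against IDH1wt (-0.40 ± 0.14; limma adjusted p = 0.0913), and passed there without IDH1wt replicate 1 (-0.55; limma adjusted p = 0.023). Tpsb2 (1451802_at; chr17:25366308-25368096), the tryptase, lay between 2.68 and 3.14 on all 9 arrays, with overlapping groups. Its log2 fold changes were 0.10 ± 0.14 in IDH1mut against CTL (limma adjusted p = 0.687), 0.06 ± 0.14 in IDH1wt against CTL and 0.04 ± 0.14 in IDH1mut against IDH1wt. The readings of Tpsb2, and all but 1 of those of Cma1, were below the array medians, where RMA compresses differences and gives no detection call, so presence of these transcripts was not established. Mcpt4, another mast cell chymase, and Tpsab1, another tryptase, lay in the same low part of the scale, between 3.05 and 3.34 and between 2.98 and 3.69 on the 9 arrays.

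The enzymes of histamine changed in opposite directions in IDH1mut cells. Hnmt (1417702_a_at; chr2:24002911-24049758), which inactivates histamine, read 5.25, 5.80 and 5.43 on the IDH1mut arrays and 7.53, 7.29 and 7.25 on the IDH1wt arrays. The CTL arrays read 7.32, 7.59 and 7.54. The IDH1mut arrays stood far below both other groups, which overlapped each other. Hnmt fell by 1.99 ± 0.15 in IDH1mut against CTL (SE; limma adjusted p = 1.46e-05) and by 1.87 ± 0.15 in IDH1mut against IDH1wt (limma adjusted p = 4.22e-05). Its log2 fold change was -0.13 ± 0.15 between IDH1wt and CTL (limma adjusted p = 0.716), with a 95% interval from -0.44 to 0.19. The 2 calls of Hnmt held when any 1 array was left out.

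Hdc (1451796_s_at; chr2:126593659-126624025), which makes histamine and is also transcribed by immature myeloid cells of mouse marrow, read 8.72, 8.84 and 8.61 on the IDH1mut arrays and 8.61, 8.62 and 8.71 on the IDH1wt arrays. The CTL arrays read 8.31, 8.26 and 8.29. Arrays of both IDH1 groups lay above all CTL arrays, and the IDH1 groups overlapped each other. The suffix of this probe set marks probes that may match transcripts of other genes. Hdc rose in IDH1mut against CTL (log2 fold change 0.44 ± 0.09, SE; limma adjusted p = 0.00608), a call that held when any 1 array was left out. Between IDH1wt and CTL it was 0.36 ± 0.09 (limma adjusted p = 0.0674), and passed among brighter genes (limma adjusted p = 0.0273), with an intensity trend (limma adjusted p = 0.0199) and with array weights (limma adjusted p = 0.0223). It did not pass in IDH1mut against IDH1wt (0.07 ± 0.09; limma adjusted p = 0.67, 95% interval from -0.13 to 0.28). The difference of Hdc minus Hnmt on the same array, also looked at after the values had been seen, was 3.47, 3.04 and 3.18 on the IDH1mut arrays and 1.07, 1.33 and 1.46 on the IDH1wt arrays. On the CTL arrays it was 0.99, 0.67 and 0.75, below all arrays of both IDH1 groups. The two-sided exact permutation test over arrays gave p = 0.1 in each of the 3 comparisons, the smallest possible. No 2 groups overlapped, so the test could give no other value and adds nothing to the separation.

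**Figure D2:**
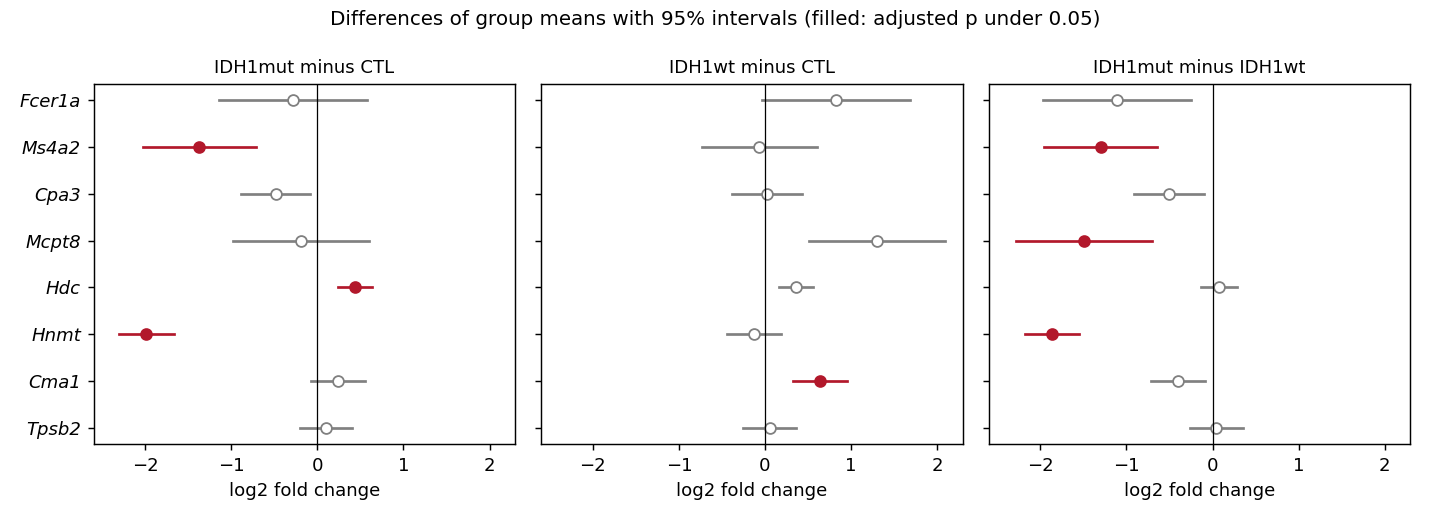
Log2 fold changes of the 8 genes (horizontal axis) in the 3 comparisons with 95% moderated intervals, filled where the limma adjusted p is under 0.05. Hnmt and Ms4a2 lie left of 0 in both comparisons with IDH1mut, Hdc lies right of 0 in both comparisons with CTL, and Mcpt8 has the largest IDH1wt minus CTL difference of the 8 with a wide interval.

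Several members varied widely within a group. The SD over the IDH1wt arrays was 0.95 for Mcpt8, 0.91 for Fcer1a and 0.65 for Ms4a2, and only 0.147%, 0.18% and 0.564% of all genes had a larger SD in that group. Over the IDH1mut arrays the SD was 0.30 for Mcpt8, 0.59 for Fcer1a and 0.54 for Ms4a2, with 7.97%, 0.575% and 0.744% of all genes above them. The SD over the CTL arrays was 0.23 for Mcpt8, 0.25 for Fcer1a and 0.06 for Ms4a2, with 12.0%, 8.35% and 78.3% of all genes above them in that group. For Fcer1a, Ms4a2, Cpa3 and Mcpt8, IDH1wt replicate 2 was the highest and replicate 1 the lowest IDH1wt array, and IDH1mut replicate 1 was the lowest of all 9. Hdc and Hnmt did not share this pattern: their SDs over the IDH1wt arrays were 0.06 and 0.15, and that of Fcer1g was 0.06. Genes of other lineages spread as much there, among them the erythroid genes Ermap (SD 1.18) and Rhag (1.10), named here after their values were seen.

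Over the 9 arrays, Pearson's r was 0.96 between Cpa3 and Ms4a2, 0.95 between Fcer1a and Mcpt8, 0.83 between Cpa3 and Fcer1a, and 0.76 between Fcer1a and Ms4a2. It was 0.68 between Cpa3 and Mcpt8 and 0.67 between Ms4a2 and Mcpt8. For Hnmt it was 0.84 with Ms4a2, 0.73 with Cpa3, 0.44 with Fcer1a and 0.42 with Mcpt8. These are descriptions over arrays that include the group differences and share 1 normalisation. Among the 1800 other genes that also spanned at least 1 log2 unit, the 5 most like Cpa3 were Ms4a2, Csrp3 (r = 0.949), Dtnb (0.894), Mtss1 (0.884) and Gata2 (0.883). The 5 most like Fcer1a were Mcpt8, Gata2 (r = 0.941), H2-Eb1 (0.937), Ddx50 (0.932) and Dtnb (0.927). For Mcpt8 they were Fcer1a, Cyp11a1 (r = 0.943), Clpx (0.941), H2-Eb1 (0.938) and Cd200r3 (0.930), and for Ms4a2 they were Cpa3, Csf2rb2 (0.935), Spin4 (0.932), Mtss1 (0.921) and Eps8l1 (0.920). Those most like Hnmt were Zbtb4 (r = 0.996), Dio2 (0.990), Wfdc18 (0.984), Nkg7 (0.983) and Cst7 (0.980).

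**Figure D3:**
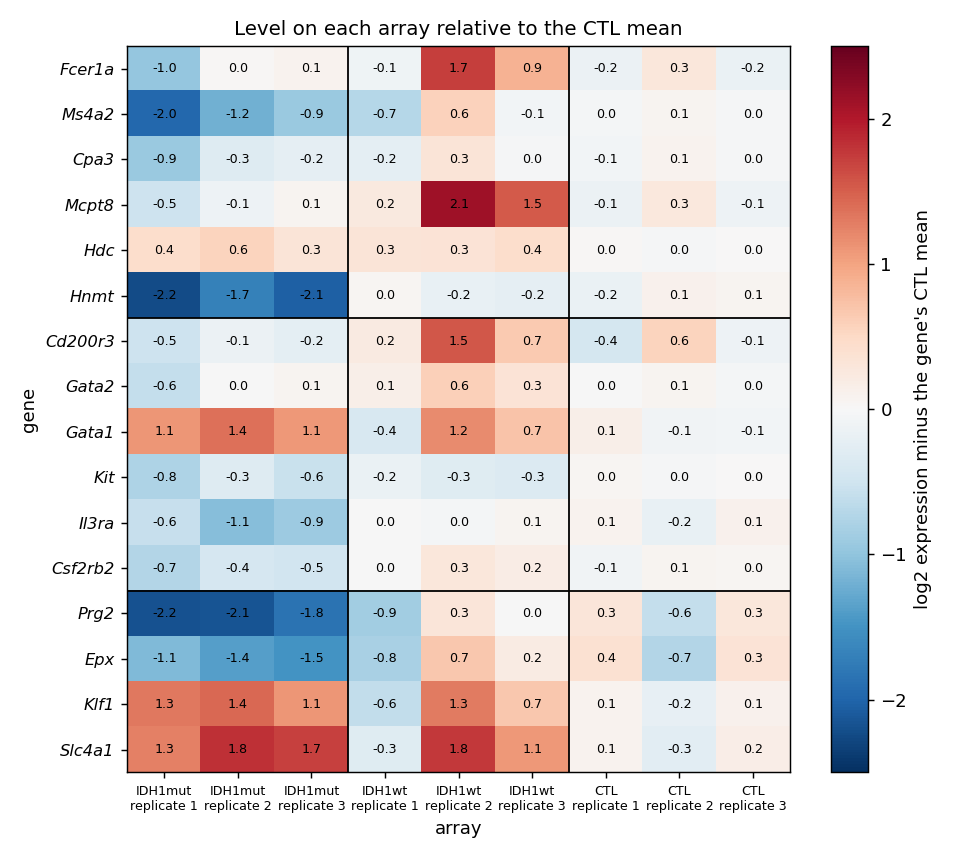
Log2 expression minus the gene's CTL mean (colour and printed value) for 6 of the 8 genes (top), other mast cell and basophil genes (middle) and eosinophil and erythroid markers (bottom), by array. IDH1wt replicate 2 is high and IDH1wt replicate 1 lower for Fcer1a, Mcpt8 and Cd200r3 and likewise for Klf1 and Slc4a1, and Prg2 is low on all IDH1mut arrays.

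Markers of other marrow cells are given beside these results, and they did not all move in the same direction. Over all genes 10.1% rose and 10.6% fell in IDH1mut against CTL, and 1.62% rose and 0.711% fell in IDH1wt against CTL. In IDH1mut against IDH1wt 6.54% of all genes rose and 6.78% fell. Eosinophils, granulocytes that share precursors with basophils, were followed with 6 measured markers, of which 4 fell and 1 rose in IDH1mut against CTL and 0 changed in IDH1wt against CTL. Their mean log2 level ranged over 5.48 to 5.61 in IDH1mut and 6.11 to 6.67 in IDH1wt, against 6.03 to 6.56 in CTL. Prg2, an eosinophil granule protein, read 7.20, 7.22 and 7.53 on the IDH1mut arrays, against 9.68, 8.78 and 9.66 on the CTL arrays. Of 10 erythroid markers, 9 rose and 0 fell in IDH1mut against CTL (median log2 fold change 1.31). In IDH1wt against CTL (median 0.43) and in IDH1mut against IDH1wt (median 0.79) 0 of these markers changed. Their mean log2 level was 8.0 to 8.25 in IDH1mut and 6.48, 8.01 and 7.46 on the IDH1wt arrays, against 6.85 to 6.94 in CTL. IDH1wt replicate 1 was therefore the lowest and replicate 2 the highest of its group for the erythroid markers as for Fcer1a, Ms4a2, Cpa3 and Mcpt8. Of 12 neutrophil granule genes, 4 rose and 4 fell in IDH1mut against CTL, with mean levels of at least 12.99 in IDH1mut, against 12.92 to 12.99 in CTL. Mpo, Elane, Prtn3 and Ctsg fell, with log2 fold changes from -1.14 to -0.62. Ltf, Lcn2, Mmp8 and Mmp9 rose, with log2 fold changes from 0.28 to 2.17. The mean level of the list does not show these opposite changes. The same genes rose and fell in IDH1mut against IDH1wt. Of 9 monocyte and macrophage markers, 2 rose and 4 fell in IDH1mut against CTL, and 0 rose and 6 fell in IDH1mut against IDH1wt. B cell markers averaged 6.37, 6.27 and 7.16 on the IDH1mut arrays and 4.80, 6.07 and 5.54 on the IDH1wt arrays, against 5.65, 6.67 and 5.58 on the CTL arrays. IDH1wt replicate 1 was again the lowest and replicate 2 the highest of that group. Of these 7 markers 2 rose and 0 fell in IDH1mut against CTL and against IDH1wt, namely the precursor B cell genes Vpreb1 and Igll1. Of 7 T and NK cell markers 2 rose and 1 fell in the same comparisons. The part of these cell types in the results above was not tested.

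Besides the 8 members, 57 of 65 further genes of mast cell and basophil biology, in 7 lists by role, had a probe set and the other 8 were not analysed here. In IDH1mut against CTL 5 rose and 9 fell (20.7% of all genes changed), in IDH1wt against CTL 2 rose and 1 fell (2.33% of all genes), and in IDH1mut against IDH1wt 3 rose and 7 fell (13.3% of all genes). The counts in both comparisons with IDH1mut were near the shares over all genes. The same shares apply to the counts of the single lists below, which are parts of these 57 genes. Their median log2 fold changes were 0.04, 0.05 and -0.04 in that order, close to those of all genes.

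Among 11 surface receptor genes, 3 fell and 0 rose in IDH1mut against CTL (median -0.11), and 3 fell and 0 rose in IDH1mut against IDH1wt (median -0.28). In IDH1wt against CTL 0 passed at the adjusted threshold. Il3ra, the alpha chain of the receptor for IL-3, a growth factor of basophils and mast cells, averaged 6.36 ± 0.24 in IDH1mut and 7.21 ± 0.06 in IDH1wt, against 7.21 ± 0.16 in CTL (SD, n = 3). It fell by 0.85 ± 0.13 in IDH1mut against CTL (limma adjusted p = 0.00101) and against IDH1wt (limma adjusted p = 0.00198). Csf2rb2, the IL-3-specific beta chain of the mouse, averaged 7.72 ± 0.17 in IDH1mut and 8.41 ± 0.15 in IDH1wt, against 8.26 ± 0.08 in CTL. It fell by 0.55 ± 0.11 in IDH1mut against CTL (limma adjusted p = 0.00598) and by 0.70 ± 0.11 against IDH1wt (limma adjusted p = 0.00281). All IDH1mut arrays lay below all arrays of the other groups for Il3ra and for Csf2rb2. Csf2rb, the common beta chain that also serves IL-3 and is named here after its values were seen, did not pass, with -0.06 in IDH1mut against CTL (limma adjusted p = 0.743) and -0.09 against IDH1wt.

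Kit, the receptor for stem cell factor on mast cells and progenitors, averaged 4.70 ± 0.22 in IDH1mut and 4.98 ± 0.09 in IDH1wt, against 5.25 ± 0.04 in CTL. It fell by 0.56 ± 0.11 in IDH1mut against CTL (limma adjusted p = 0.00573). In IDH1wt against CTL Kit did not pass (-0.27 ± 0.11, limma adjusted p = 0.263), though all IDH1wt arrays lay below all CTL arrays. It did not pass in IDH1mut against IDH1wt either (-0.28 ± 0.11, limma adjusted p = 0.136), where the arrays overlapped. On the IDH1mut arrays Kit read 4.48, 4.92 and 4.69, near the array medians. Cd200r3, a receptor of mouse basophils and mast cells, read 3.94, 4.32 and 4.22 on the IDH1mut arrays and 4.68, 6.01 and 5.12 on the IDH1wt arrays, against 4.02, 5.02 and 4.34 on the CTL arrays. As for Mcpt8, IDH1wt replicate 2 was the highest array. The Cd200r3 readings of all IDH1mut arrays and of CTL replicates 1 and 3 were below the array medians, where RMA compresses differences. Cd200r3 fell by 1.11 ± 0.31 in IDH1mut against IDH1wt (limma adjusted p = 0.0365). That call was lost without any 1 of 5 single arrays: IDH1wt replicate 2 (log2 fold change -0.74; limma adjusted p = 0.0906) or 3 (limma adjusted p = 0.0747), or IDH1mut replicate 1 (limma adjusted p = 0.103), 2 (limma adjusted p = 0.0674) or 3 (limma adjusted p = 0.0863).

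Among 10 transcription factor genes, 2 rose and 3 fell in IDH1mut against CTL (median 0.18), 1 rose in IDH1wt against CTL (median 0.22), and 3 fell in IDH1mut against IDH1wt (median -0.13). Gata1, which acts in mast cells, basophils, eosinophils, erythroid cells and megakaryocytes, read 7.58, 7.85 and 7.57 on the IDH1mut arrays and 6.08, 7.66 and 7.20 on the IDH1wt arrays. On the CTL arrays it read 6.63, 6.40 and 6.42. Gata1 rose by 1.19 ± 0.30 in IDH1mut against CTL (limma adjusted p = 0.0158), with the call lost without CTL replicate 2 (limma adjusted p = 0.0502), CTL replicate 3 (limma adjusted p = 0.0515) or IDH1mut replicate 2 (limma adjusted p = 0.0539). Between IDH1wt and CTL it was 0.50 (limma adjusted p = 0.434), but passed without IDH1wt replicate 1 (0.95 ± 0.15; limma adjusted p = 0.011). In IDH1mut against IDH1wt it was 0.69 (limma adjusted p = 0.165), but passed without IDH1wt replicate 2 (1.03 ± 0.26; limma adjusted p = 0.0285). Gata1 was high on the IDH1mut arrays, on which Ms4a2 was low. Within IDH1wt, however, both were lowest on replicate 1 and highest on replicate 2. The mean level of the erythroid markers had that order in IDH1wt too and was high on the IDH1mut arrays, as for Gata1. A relation of Gata1 to Ms4a2 was not tested. Gata2 averaged 8.08 ± 0.36 in IDH1mut and 8.62 ± 0.22 in IDH1wt, against 8.26 ± 0.06 in CTL. It did not pass in any comparison, with -0.54 ± 0.17 in IDH1mut against IDH1wt (limma adjusted p = 0.0564). That comparison passed in 6 of 14 alternatives, 1 of them without IDH1mut replicate 3 (limma adjusted p = 0.0462) and 5 with other models, scaling or filtering (limma adjusted p from 0.0326 with brighter genes to 0.0483 with array weights). Tal1, a partner of GATA factors, rose in IDH1mut (0.78 ± 0.13; limma adjusted p = 0.00189) and in IDH1wt (0.72 ± 0.13; limma adjusted p = 0.0179) against CTL. The IDH1wt call of Tal1 was lost without any single array but IDH1wt replicate 1, at limma adjusted p from 0.0591 without CTL replicate 1 to 0.0688 without IDH1wt replicate 3. Irf8, a factor of monocytes and basophil precursors, fell in IDH1mut against CTL (-0.77 ± 0.16; limma adjusted p = 0.00633) and against IDH1wt (-0.87 ± 0.16; limma adjusted p = 0.00541).

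Of 10 IgE receptor signalling genes, 1 rose and 2 fell in IDH1mut against CTL (median 0.13), 0 passed in IDH1wt against CTL (median 0.00), and 1 rose and 1 fell in IDH1mut against IDH1wt (median -0.04). The adaptor genes Lat and Lat2 changed in opposite directions in IDH1mut against CTL, Lat with a rise of 0.61 ± 0.12 (limma adjusted p = 0.00445) and Lat2 with a fall (-0.86 ± 0.13; limma adjusted p = 0.00102). Lat2 also fell against IDH1wt (-0.65 ± 0.13; limma adjusted p = 0.00808). Syk, the kinase recruited by the gamma chain, averaged 6.65 ± 0.11 in IDH1mut and 6.10 ± 0.32 in IDH1wt, against 6.54 ± 0.07 in CTL. It rose in IDH1mut against IDH1wt (0.56 ± 0.14; limma adjusted p = 0.027), a call lost without IDH1wt replicate 3 (0.37; limma adjusted p = 0.0689), IDH1mut replicate 2 (limma adjusted p = 0.0723) or IDH1mut replicate 3 (limma adjusted p = 0.0885).

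Of 6 eicosanoid synthesis genes, 2 rose in IDH1mut against CTL (median 0.12), 1 rose in IDH1wt against CTL (median -0.05) and 1 rose in IDH1mut against IDH1wt (median 0.15), with 0 fallen in each. Alox5, the 5-lipoxygenase of leukotriene synthesis, which other myeloid cells use too, rose by 0.66 ± 0.09 in IDH1mut (limma adjusted p = 0.000558) and by 0.51 ± 0.09 in IDH1wt (limma adjusted p = 0.0152) against CTL. The IDH1wt call was lost without CTL replicate 1 (limma adjusted p = 0.0831), CTL replicate 3 (limma adjusted p = 0.0706) or IDH1wt replicate 2 (limma adjusted p = 0.0534). Alox5ap, which encodes its activating protein, rose by 0.37 ± 0.08 in IDH1mut against CTL (limma adjusted p = 0.00858) and by 0.36 ± 0.08 against IDH1wt (limma adjusted p = 0.016), the second call lost without IDH1wt replicate 3 (limma adjusted p = 0.0577).

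Of 8 effector cytokine genes, Ccl3 fell in IDH1mut against CTL (-0.60 ± 0.15, limma adjusted p = 0.0138). That call was lost without CTL replicate 1 (limma adjusted p = 0.0527), CTL replicate 3 (limma adjusted p = 0.0558) or IDH1mut replicate 2 (limma adjusted p = 0.0554). In IDH1wt against CTL Ccl3 was lower by nearly as much (-0.58 ± 0.15, limma adjusted p = 0.0679), with all IDH1wt arrays below all CTL arrays. It passed there among brighter genes (limma adjusted p = 0.0406), with an intensity trend (limma adjusted p = 0.0247) and with array weights (limma adjusted p = 0.0197). In IDH1mut against IDH1wt Ccl3 did not pass (-0.02, limma adjusted p = 0.954). Osm fell in IDH1wt against CTL (-0.52 ± 0.12; limma adjusted p = 0.0425), a call lost without any 1 of the 6 arrays compared (limma adjusted p from 0.0628 without IDH1wt replicate 2 to 0.149 without CTL replicate 1). Tnf rose in IDH1mut against IDH1wt (0.47 ± 0.10; limma adjusted p = 0.00844). The medians of these 8 genes were 0.01 in IDH1mut and -0.07 in IDH1wt against CTL, and -0.02 in IDH1mut against IDH1wt.

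In the list of granule matrix, amine transport and histamine receptor genes, 0 of 6 passed in any comparison (medians 0.16 in IDH1mut and 0.11 in IDH1wt against CTL, and -0.08 in IDH1mut against IDH1wt). Slc18a2, the vesicular transporter that loads histamine into granules, read 4.54, 5.53 and 5.95 on the IDH1mut arrays and 5.69, 5.67 and 5.72 on the IDH1wt arrays, against 4.48, 4.84 and 5.03 on the CTL arrays. Its log2 fold change was 0.55 ± 0.28 in IDH1mut against CTL (limma adjusted p = 0.196) and passed without IDH1mut replicate 1 (0.95 ± 0.17; limma adjusted p = 0.00347). Between IDH1wt and CTL it was 0.91 ± 0.28 (limma adjusted p = 0.126), with all IDH1wt arrays above all CTL arrays. That comparison passed in a fit on the 6 arrays compared (limma adjusted p = 0.0152) and with array weights (limma adjusted p = 0.0318). In IDH1mut against IDH1wt Slc18a2 did not pass (-0.35 ± 0.28, limma adjusted p = 0.474). Among 6 other granule proteases 0 passed in any comparison, with log2 fold changes between -0.26 and 0.46. All of them but Gzmb read below the array medians, which limits what these fold changes can show.

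**Figure D4:**
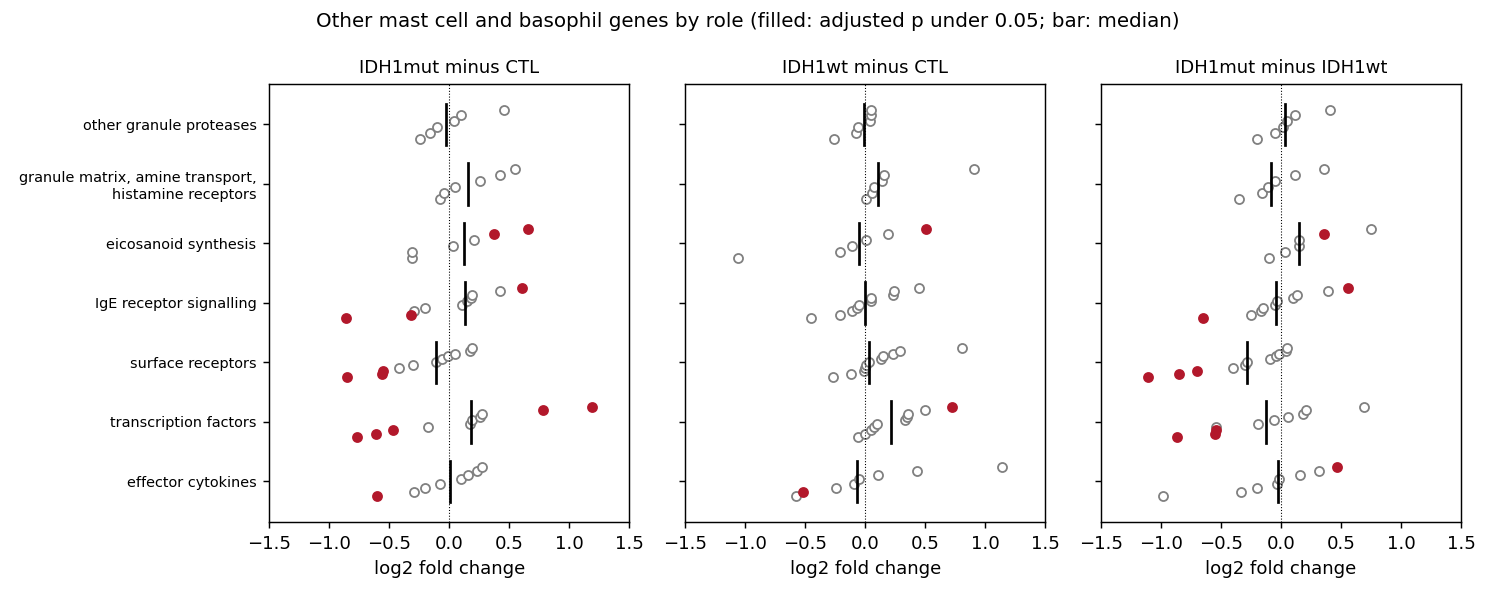
Log2 fold change (horizontal axis) of each of the 57 further mast cell and basophil genes in 7 lists by role, 1 point per gene, filled where the limma adjusted p is under 0.05, with a bar at each list's median. Of the surface receptors 3 lie below 0 as filled points in both comparisons with IDH1mut, and other granule proteases have 0 filled points.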

How the data were processed

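Total RNA, 3 µg per sample, was labelled for Affymetrix mouse arrays, per the labels' protocols. The deposited values are log2 expression per probe set made with RMA, per the submitters' processing notes; its version, and the step that left about 1 probe set per gene, are not given in the sources used here. The table held 20877 probe sets, and a 2016 annotation gave 17815 of them 1 symbol, 244 several and 2818 none. Only the first kind was used, with the probe set of highest mean per gene (17731 genes). The number of arrays limits the precision, and the values carry no detection call.

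limma 3.58.1 (R 4.3.3) fitted 1 mean per group to the 9 arrays, and the 3 contrasts were tested two-sided with Benjamini-Hochberg adjustment over all genes at 0.05. SEs and intervals are moderated. The fit was tested on simulated data. The 8 members, the wider lists and the named genes were chosen with earlier results of these data known; of each wider list up to 3 changed genes, and Kit, Gata1, Gata2, Fcer1g and Slc18a2, were named by rule. Promoter sequences came from RefSeq (GRCm38.p6). Alternatives were probe set averaging, 2 other scalings, brighter genes, the 6 arrays compared, the replicate number as a block, array weights, another variance model and each array left out.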

Additional observations from a re-analysis of the deposited data

Results flagged for a closer look

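The IDH1mut and IDH1wt arrays were each set against the same CTL arrays, and 11 of the 26 named genes differed between these effects by the test of the difference itself, IDH1mut minus IDH1wt (limma), against 13.3% of all genes. Many of the named genes were chosen for having changed, so this count is a description and supports nothing. Among the 8 members these were Hnmt at -1.87 ± 0.15 (SE; limma adjusted p = 4.22e-05), Mcpt8 at -1.49 ± 0.36 (limma adjusted p = 0.0197) and Ms4a2 at -1.30 ± 0.30 (limma adjusted p = 0.0159) on the log2 scale. Lower in IDH1mut were also Cd200r3 (-1.11), Irf8 (-0.87), Il3ra (-0.85), Csf2rb2 (-0.70) and Lat2 (-0.65). Higher in IDH1mut were Syk (0.56), Tnf (0.47) and Alox5ap (0.36). For Cd200r3, Irf8 and Tnf the IDH1mut and IDH1wt arrays lay on opposite sides of the CTL mean, each group without exception. Against CTL, Cd200r3 (limma adjusted p = 0.563 in IDH1mut and 0.22 in IDH1wt) and Tnf (limma adjusted p = 0.118 and 0.233) passed in neither group. Irf8 passed in IDH1mut but not in IDH1wt (0.10; limma adjusted p = 0.798). Opposite changes from CTL were therefore not established.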

How the results depend on the processing

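Over 330 alternative values of the 8 members, 304 kept their side of the threshold, 14 lost a call and 12 gained one, and 0 called values changed sign. Of 753 values of the other named genes 695 kept their side, 33 lost a call, 25 gained one and 0 changed sign. Ms4a2, Hdc and Hnmt remained called in IDH1mut against CTL under every alternative run. In IDH1wt against CTL, the members called numbered 0 in a fit on the 6 arrays compared, 3 with array weights and 2 with robust variances along an intensity trend. All genes called there numbered 717 with the trend and 1226 with array weights (714 rose, 512 fell), against 414 (288 rose, 126 fell). In IDH1mut against IDH1wt, 1 member was called with the intensity trend, where Ms4a2 (adjusted p = 0.0689) and Mcpt8 (adjusted p = 0.0873) were lost. The causes were not tested.

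Leaving out 1 array in turn gave 2370 to 3390 genes and 3 members in IDH1mut against CTL, with the lowest count without CTL replicate 1. In IDH1wt against CTL it gave 132 to 570 genes and 0 to 2 members; without CTL replicate 1 it was 132 and without CTL replicate 3 145, while leaving out IDH1wt replicate 2 gave 211 and IDH1wt replicate 3 145. In IDH1mut against IDH1wt it gave 1475 (without IDH1wt replicate 3) to 2050 genes, with 1528 without IDH1mut replicate 2, and 1 to 5 members, with 5 without IDH1wt replicate 1.

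Over all genes the replicate numbers showed no pairing of the arrays: deviations from the group means of same-numbered arrays correlated between -0.09 and 0.03 in 9 pairs. That check cannot exclude pairing for single genes. In IDH1mut against CTL the block lowered the SE from 0.39 to 0.24 for Fcer1a, 0.36 to 0.26 for Mcpt8, 0.30 to 0.22 for Ms4a2 and 0.18 to 0.14 for Cpa3. It did not lower the SE of Hdc, Hnmt, Cma1 or Tpsb2. With the replicate block, 3383 genes and 4 members were called in IDH1mut against CTL, 314 and 1 in IDH1wt against CTL, and 2035 and 5 in IDH1mut against IDH1wt. With it Cpa3 passed in IDH1mut against CTL (adjusted p = 0.0411) and against IDH1wt (adjusted p = 0.0489), and Fcer1a against IDH1wt (adjusted p = 0.0192). In IDH1wt against CTL Mcpt8 passed (adjusted p = 0.0442) and Cma1 did not (adjusted p = 0.0718). Values near the low end of the scale, as for Cma1 and Tpsb2, limit what a fold change can show.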
